A study of Rattus norvegicus and Mus musculus with 22 samples.

Results

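Cav1, Kcnk3, Tbx4, Aqp1, Atp13a3, Eif2ak4 and Notch3 were followed through the lungs of rats under the Sugen-hypoxia model of pulmonary arterial hypertension. The first 6 are genes in which human mutations cause or predispose to heritable pulmonary hypertension without belonging to the BMP or VEGF pathways, and Notch3 was added to them as a vascular smooth muscle receptor with a long association with the disease. They were picked by gene symbol, by a rule that uses no measured value although earlier results of these data were known, and are 7 of the 20228 symbols found in all 3 rat count tables. Of 22 samples in the series, the 16 rat RNA-seq libraries were used, and the 6 mouse libraries were not.

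All rats had received Sugen-Hypoxia, the combination of Sugen, an inhibitor of VEGF receptors, with low oxygen, so no untreated lung stands beside them. The groups compared were IL6KO rats, labelled with the genotype IL6-KO, and WT rats, labelled Wild type. For whole lung there were 3 libraries of each genotype at day 56 and as many at day 7. Cells taken from day 7 lungs with CD4 magnetic beads (MACS), labelled as Lung CD4-positive cell and called CD4 isolates here, had 2 libraries per genotype. Age, sex, strain and the schedule of dosing were not given in the labels. The labels also do not say that the libraries of a group came from separate animals, so p-values measure the spread between these libraries.

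Caveolin-1 (Cav1) coats caveolae, the flask-shaped pits of the plasma membrane that are dense on endothelial and alveolar type 1 cells. Kcnk3 encodes TASK-1, a background potassium channel that holds the resting membrane potential of pulmonary artery smooth muscle. Tbx4 is a T-box transcription factor of the lung mesenchyme and the hind limb bud, and Aqp1 is the water channel of lung microvascular endothelium and red cells. Atp13a3 is a P5-type ATPase that carries polyamines, and Eif2ak4 (GCN2) is the kinase that senses amino acid starvation and starts the integrated stress response; its biallelic loss in humans causes pulmonary veno-occlusive disease. Notch3 is a receptor of smooth muscle cells and pericytes, cleaved after contact with ligands such as Jag1 or Dll4 on neighbouring endothelium, after which its inner part joins the DNA-binding protein RBPJ on Hes and Hey genes.

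The libraries held 11477533 to 12930732 counts in the CD4 isolates, 14415060 to 22961232 in day 56 lung and 15011692 to 23590070 in day 7 lung. Il6, the targeted gene, had 0, 2 and 3 counts in IL6KO lungs and 6, 6 and 5 in WT lungs at day 56, 8, 5 and 2 counts in IL6KO lungs and 5, 11 and 6 in WT lungs at day 7, and 8 and 17 counts in IL6KO isolates and 48 and 20 in WT isolates. The genotypes overlapped in day 7 lung and did not overlap in the other 2 sets, and the gene counts cannot show which part of the gene a read came from. On the first principal component of the day 56 lungs, which took 47.5% of the variance, WT replicate 3 lay at -14.2, among the IL6KO lungs at -16.9, -12.5 and -19.3 and away from the other WT lungs at 34.7 and 28.1. Each day and each cell preparation came in a count table of its own, so day and table, or preparation and table, cannot be told apart.

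Promoter sequences are shown for the 3 genes whose differences carry the results, from RefSeq on the rat assembly GRCr8, 250 bases before the transcription start to 50 bases from it. Of the 7 genes, 5 had a promoter entry, with 6 promoters in all. Kcnk3 and Atp13a3 had none. Capitals mark matches on either strand to TTCNNNGAA, the palindrome bound by STAT factors, TGGGAA, the core bound by RBPJ, and TATAAA, the TATA box. The Cav1 promoter lies at chr4:46606288-46606587 on the plus strand, the Aqp1 promoter at chr4:85812534-85812833 on the plus strand and the Notch3 promoter at chr7:11834536-11834835 on the minus strand.
Cav1: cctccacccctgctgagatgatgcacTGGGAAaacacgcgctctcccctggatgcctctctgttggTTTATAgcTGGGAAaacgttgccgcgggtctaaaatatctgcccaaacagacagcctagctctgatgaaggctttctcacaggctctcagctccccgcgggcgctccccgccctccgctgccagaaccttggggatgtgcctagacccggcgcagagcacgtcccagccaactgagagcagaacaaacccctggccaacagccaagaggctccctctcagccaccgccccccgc
Aqp1: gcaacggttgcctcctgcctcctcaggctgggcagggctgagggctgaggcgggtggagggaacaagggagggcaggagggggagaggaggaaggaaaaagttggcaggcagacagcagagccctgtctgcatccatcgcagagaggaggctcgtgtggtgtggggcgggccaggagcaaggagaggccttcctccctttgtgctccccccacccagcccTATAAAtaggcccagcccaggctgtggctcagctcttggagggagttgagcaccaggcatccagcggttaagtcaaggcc
Notch3: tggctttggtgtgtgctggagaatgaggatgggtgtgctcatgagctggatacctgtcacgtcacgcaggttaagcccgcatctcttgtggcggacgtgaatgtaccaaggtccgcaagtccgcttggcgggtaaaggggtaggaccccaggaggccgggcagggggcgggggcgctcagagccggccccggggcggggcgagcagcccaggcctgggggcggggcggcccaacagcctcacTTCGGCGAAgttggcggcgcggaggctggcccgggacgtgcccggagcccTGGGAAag

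In the Notch3 promoter, TTCNNNGAA runs from base -8 to base 1 counted from the start, where the first transcribed base is 1, and TGGGAA from base 43 to base 48. In the Aqp1 promoter, TATAAA lies at -30 to -25. The Cav1 promoter shown has TGGGAA at -224 to -219 and at -176 to -171, and TATAAA on the opposite strand at -184 to -179. The promoters of Tbx4 and Eif2ak4 and the second promoter of Cav1 held none of these letters, and none of the 6 held a CArG box, the serum response factor motif. Among 33469 rat promoters of this length, 8.87% held TTCNNNGAA, 25.7% TGGGAA, 14.2% TATAAA and 1.64% a CArG box. A match describes the letters only.

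Expression levels are given in CPM, counts scaled to a library of fixed size after TMM normalisation, on a scale shared by the 12 lung libraries, with replicates 1, 2 and 3 in that order. Gene lengths were not used, so levels are compared between groups and not between genes.

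Cav1 had 1791, 1478 and 1573 CPM in IL6KO lungs at day 56, against 1541, 1681 and 1519.7 CPM in WT lungs at day 56. At day 7 it had 1681, 1683 and 1647 CPM in IL6KO lungs, against 1489, 1385.5 and 1199 CPM in WT lungs. The WT lungs of day 7 lay below every IL6KO lung of day 7 and every WT lung of day 56, and the other 3 groups overlapped one another.

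Aqp1 had 916, 1012 and 605 CPM in IL6KO lungs at day 56, against 943, 1011 and 1281 CPM in WT lungs at day 56. At day 7 it had 911, 861 and 941 CPM in IL6KO lungs, against 1072, 1127 and 1091 CPM in WT lungs. The genotypes did not overlap at day 7 and overlapped at day 56, where IL6KO replicate 3 was the lowest and WT replicate 3 the highest of all 12 lungs.

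Notch3 had 145, 159 and 232 CPM in IL6KO lungs at day 56, against 262, 211 and 258 CPM in IL6KO lungs at day 7. In WT lungs it had 163, 150.1 and 132 CPM at day 56, against 238, 228 and 278 CPM at day 7. Every WT lung of day 56 was below every WT lung of day 7, while IL6KO replicate 3 of day 56 reached the range of day 7.

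Kcnk3 had 23.5, 21.2 and 23.5 CPM in IL6KO lungs at day 56, against 31.2, 26.9 and 30.4 CPM in IL6KO lungs at day 7. In WT lungs it had 27.0, 27.8 and 20.7 CPM at day 56, against 33.8, 33.9 and 31.2 CPM at day 7. In each genotype the day 56 lungs lay below the day 7 lungs.

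Tbx4 averaged 137 ± 39.6 CPM in IL6KO lungs and 149 ± 15.5 CPM in WT lungs at day 56, and 157 ± 8.70 CPM in IL6KO lungs and 149.8 ± 9.09 CPM in WT lungs at day 7 (SD, n = 3 each). The widest group was IL6KO at day 56, with 103, 127 and 180.4 CPM. Eif2ak4 averaged 69.95 ± 5.41 CPM in IL6KO lungs and 64.2 ± 1.32 CPM in WT lungs at day 56, and 63.1 ± 3.17 CPM in IL6KO lungs and 65.3 ± 8.16 CPM in WT lungs at day 7 (SD, n = 3 each). Each of its groups overlapped the next in order of the means.

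Atp13a3 was counted least, with 66 to 148 reads per lung library. It had 7.25, 7.72 and 7.76 CPM in IL6KO lungs at day 56, against 3.62, 4.48 and 8.85 CPM in WT lungs at day 56. The 3 IL6KO lungs were close together, and WT replicate 3, the library that stood apart, was above them while the other WT lungs were below. At day 7 it averaged 5.31 ± 0.773 CPM in IL6KO lungs and 5.14 ± 0.512 CPM in WT lungs (SD, n = 3 each). A pseudogene of Atp13a3 and overlapping annotated transcripts at Atp13a3, Kcnk3 and Tbx4 could share reads with them, as the counting of strands and of repeated sequences was not given in the sources used here.

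**Figure D1:**
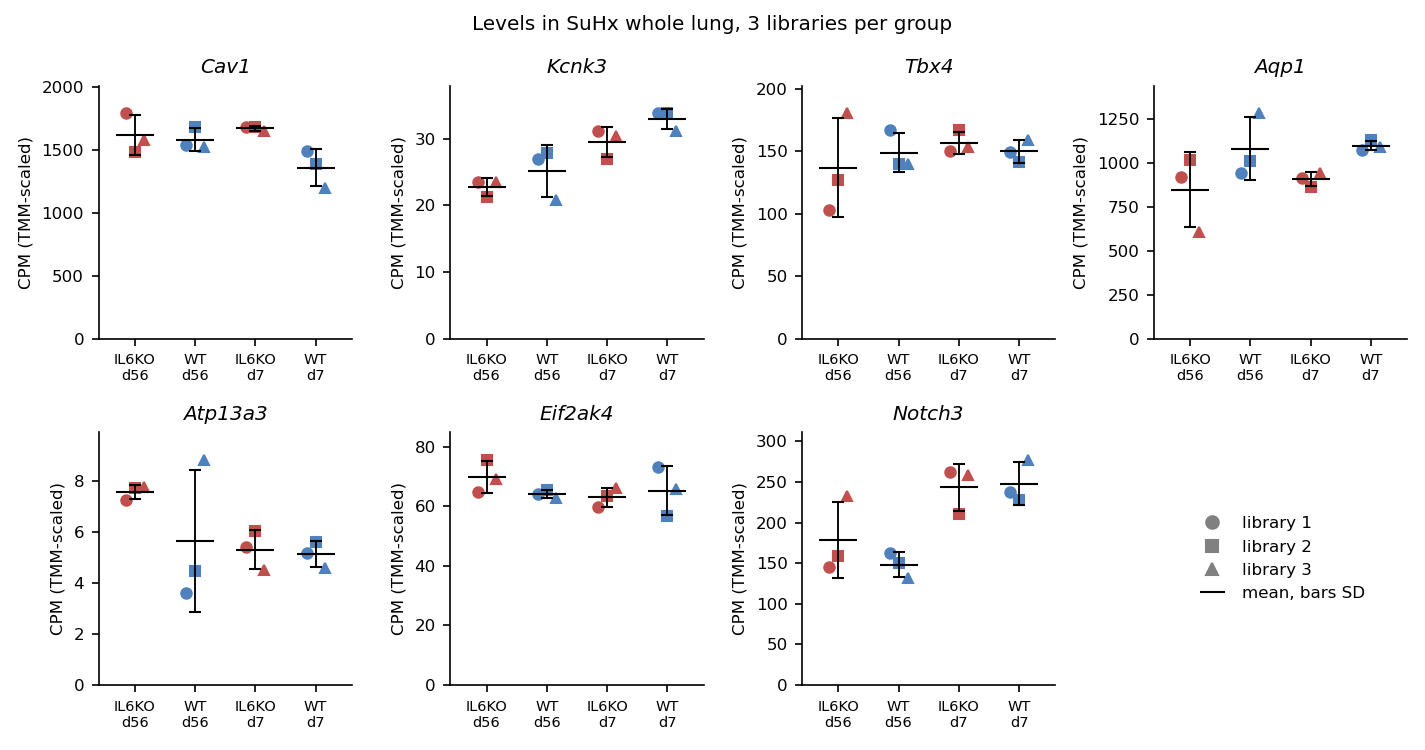
Level of each gene in the 12 whole-lung libraries, in TMM-normalised CPM, by genotype and day, with a point per library and the mean and SD of each group (n = 3). Notch3 and Kcnk3 are lower at day 56 than at day 7 in WT lungs without overlap, and WT lungs of day 7 have the lowest mean of Cav1.

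Ordered by group mean, most neighbouring groups overlapped. For Cav1, WT lungs of day 56 lay above WT lungs of day 7 without overlap, as 31.8% of all genes tested had no overlap between those groups in either direction. For Aqp1, IL6KO lungs of day 7 lay below WT lungs of day 56, a pair that differs in genotype and day and was not tested. For Kcnk3 at day 7, the highest IL6KO lung and the lowest WT lung were both at 31.2 CPM, and the groups overlapped when the day 7 libraries were scaled by themselves. In bulk tissue such as this, fewer cells of a type and less RNA per cell cannot be told apart.

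The loss of Il6 was compared first within day 56 lung. None of the 7 genes passed the test (edgeR quasi-likelihood test, Benjamini-Hochberg adjusted p under 0.05 over all genes), where 2 of 14475 genes tested did, or 0.0138%. At an unadjusted p under 0.05 there were 1649 such genes, 11.4%, and none of the 7 was among them. DESeq2 called 175 genes and limma-voom 4, with none of the 7. The estimates of IL6KO over WT ran from -0.36 ± 0.21 (log2 ± SE) for Aqp1, with an adjusted p of 0.502 in edgeR, to 0.43 ± 0.33 for Atp13a3, with an adjusted p of 0.583. No gene of the 7 separated the genotypes without overlap, which 16.8% of all tested genes did. Cav1 differed least, by 0.02 log2 units with a 95% interval of -0.23 to 0.28.

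WT replicate 3 decided the value for Atp13a3. Without that library the gene was higher in IL6KO lungs by 0.90 log2 units with an adjusted p of 0.0336 in edgeR, and the genes called across the whole table numbered 1268. Over 14 alternative settings its adjusted p ran from 0.0336 to 0.905. Cardiac muscle markers, which in lung samples come with the muscle sleeve of the pulmonary veins or with heart, also set that library among the IL6KO lungs. Their summed level was 708, 557 and 344 CPM in IL6KO lungs and 50.6, 133 and 448 CPM in WT lungs. Their part in the result was not tested.

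No other pulmonary hypertension gene or pathway partner was called at day 56. The lists held 8 BMP and VEGF pathway genes, 10 further hypertension genes, 9 caveola genes, 15 Notch receptors, ligands and processing enzymes, 7 Notch targets and 19 genes of the integrated stress response that were tested, among others. At an unadjusted p under 0.05 these lists had 2, 2, 0, 2, 1 and 2 genes. Bmpr2, the BMP receptor most often mutated in the heritable disease, had the smallest p of the BMP and VEGF list, at 0.78 log2 units with an adjusted p of 0.401 in edgeR. Its level was 329 ± 28.9 CPM in IL6KO lungs and 191 ± 63.4 CPM in WT lungs (SD, n = 3 each).

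At day 7, Cav1 was higher and Aqp1 lower in every IL6KO lung than in any WT lung, but neither passed the test. Cav1 stood at 0.30 ± 0.092 (log2 ± SE, 95% interval 0.09 to 0.50, adjusted p = 0.164 in edgeR), a ratio of 1.23. Aqp1 stood at -0.28 ± 0.070 (95% interval -0.44 to -0.12, adjusted p = 0.0846 in edgeR), a ratio of 0.824. None of the 7 genes was called, beside 2.09% of the 14368 genes tested, and only these 2 had an unadjusted p under 0.05. Groups without overlap were found for 9.09% of all tested genes in the higher and 9.66% in the lower direction. DESeq2 called both genes, with adjusted p of 0.0389 for Cav1 and 0.00541 for Aqp1; over 14 alternatives the adjusted p ran from 0.0389 to 0.380 and from 0.00541 to 0.685, and no other alternative called either.

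The remaining 5 genes had smaller estimates at day 7. Kcnk3 was the farthest from 0, at -0.16 with a 95% interval of -0.36 to 0.04 (adjusted p = 0.477 in edgeR), and Notch3 was at -0.02 with an interval of -0.26 to 0.21. The median of the 7 genes was -0.02, and that of all genes tested was 0.0031.

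Single partners of the 7 genes passed the test at day 7. Of 10 further hypertension genes tested, Pdgfd, a platelet-derived growth factor, and Sox17, an endothelial transcription factor mutated in familial disease, were higher in IL6KO lungs, by 0.77 (adjusted p = 0.0321 in edgeR) and 0.52 (adjusted p = 0.0476). Of 4 aquaporins, Aqp4, a water channel of airway epithelium, was higher by 0.80 (adjusted p = 0.0461). Of 14 P5 ATPase and polyamine genes, Amd1, which makes the decarboxylated S-adenosylmethionine used for spermidine, was higher by 0.72 (adjusted p = 0.0200). Of 16 Notch receptors, ligands and processing enzymes, Dll1, a ligand, was lower by 0.64 on the log2 scale (adjusted p = 0.0403).

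Of 9 caveola genes, none was called at day 7. Their median was 0.12, 8 of the 9 estimates were positive, and Cavin1, the coat protein that caveolae need beside caveolin, had the smallest p, at 0.26 ± 0.069 (log2 ± SE, adjusted p = 0.110 in edgeR). None of 8 BMP and VEGF pathway genes, 6 potassium channels of the Kcnk family with Kcna5, 9 mesenchymal regulators, 19 integrated stress response genes or 7 Notch targets was called, and 2, 1, 2, 2 and 5 of them had an unadjusted p under 0.05. Endothelial markers had 0 of 11 called, smooth muscle markers 2 of 10 lower and pericyte markers 1 of 8 lower.

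**Figure D2:**
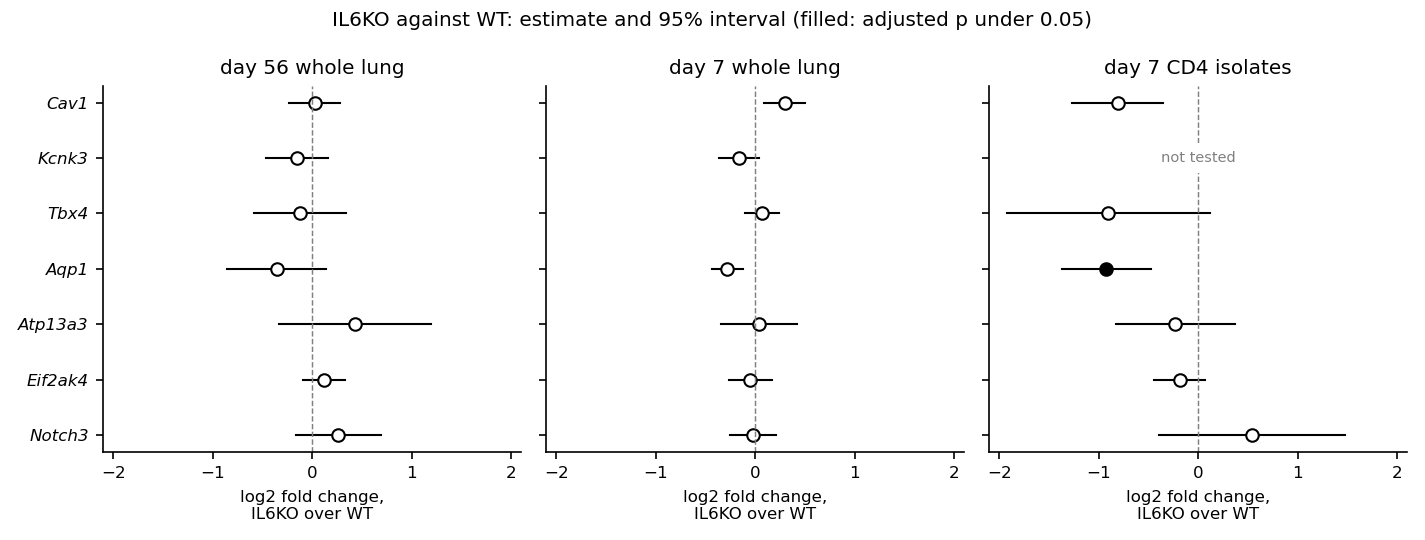
Difference of IL6KO from WT for each gene, as log2 fold change with its 95% interval, in day 56 lung, day 7 lung and day 7 CD4 isolates. In the isolates Aqp1 and Cav1 lie at -0.92 and -0.81, while in day 7 lung Cav1 lies above 0; Kcnk3 is not shown for the isolates, where it had at most 3 counts.

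Between day 7 and day 56 the lungs differed in Notch3 and Kcnk3. In WT lungs Notch3 fell to 148 ± 15.5 CPM at day 56, against 248 ± 26.4 CPM at day 7 (SD, n = 3 each), a log2 difference of -0.74 ± 0.16 (SE, 95% interval -1.10 to -0.38, adjusted p = 0.00994 in edgeR) and a ratio of 0.598. Kcnk3 fell in WT lungs to 25.2 ± 3.86 CPM at day 56, against 33.0 ± 1.55 CPM at day 7 (SD, n = 3 each), a log2 difference of -0.39 ± 0.11 (SE, 95% interval -0.63 to -0.14, adjusted p = 0.0407 in edgeR). These were 2 of the 7 genes, beside 14.8% of 13865 genes called in either direction and 8.05% called lower. Both separated the days without overlap, as did 31.8% of all genes tested.

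The Notch3 call held in all 13 alternatives, at -0.81 to -0.66 with adjusted p from 1.60e-04 to 0.0413. That of Kcnk3 did not: it was lost when WT replicate 1 or 3 of day 56 (-0.44 and -0.27, adjusted p 0.0590 and 0.0546) or replicate 1, 2 or 3 of WT day 7 (-0.37, -0.37 and -0.43, adjusted p 0.107, 0.121 and 0.0614) was left out. Cav1 was higher at day 56 in WT lungs by 0.22 ± 0.098 without overlap, but with an adjusted p of 0.157. The other 4 genes lay between -0.02 and 0.11 log2 units.

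In IL6KO lungs none of the 7 genes passed, beside 8.32% of 13865 genes, and 2, Kcnk3 and Notch3, had an unadjusted p under 0.05. Kcnk3 had an estimate close to that in WT, at -0.37 ± 0.11 (SE, adjusted p = 0.0681 in edgeR), and its days did not overlap, as was so for 29.6% of all genes; DESeq2 called it with an adjusted p of 0.0240, and over 13 alternatives the adjusted p ran from 0.0240 to 0.212. Notch3 was at -0.45 ± 0.16 (SE, adjusted p = 0.125 in edgeR). Without IL6KO replicate 3 of day 56 it was called at -0.68 with an adjusted p of 0.00900, and Tbx4 was called as well, at -0.44 with an adjusted p of 0.0469; over 13 alternatives the adjusted p of Notch3 ran from 0.00900 to 0.331 and that of Tbx4 from 0.0469 to 0.941.

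That library had the highest summed pericyte markers of the day 56 lungs, 1169 CPM beside 845 and 779 CPM in the other IL6KO lungs, and the lowest smooth muscle markers, 1163 CPM beside 1509 and 1341 CPM. Its median pericyte marker was not the highest, at 37.0 CPM beside 34.2 and 39.3 CPM in the other IL6KO lungs. The part of those cells in its Notch3 and Tbx4 values was not tested. Atp13a3 was higher in each IL6KO lung of day 56 than in any of day 7, at 0.51 ± 0.27 (SE, adjusted p = 0.291 in edgeR).

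**Figure D3:**
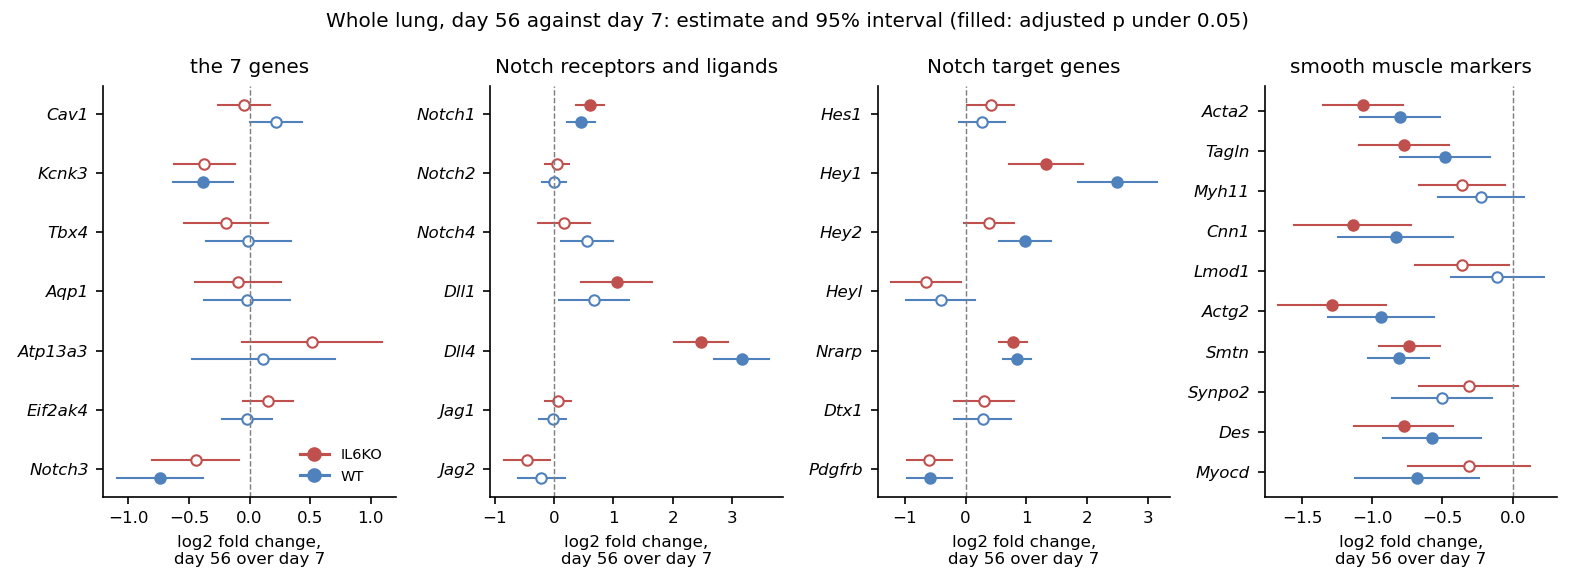
Difference of day 56 from day 7 lung in IL6KO and in WT rats, as log2 fold change with its 95% interval (filled points, adjusted p under 0.05), for the 7 genes, for Notch receptors and ligands, for Notch targets and for smooth muscle markers. Notch3 and Kcnk3 lie below 0 in both genotypes and were called in WT, Dll4 lies at 2.48 in IL6KO and 3.16 in WT lungs, and 6 smooth muscle markers in IL6KO and 7 in WT lungs were called lower.

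Some other genes of the Notch pathway were also called between the days, most of those called being higher at day 56. Dll4, an endothelial Notch ligand, rose by 2.48 ± 0.21 in IL6KO lungs and 3.16 ± 0.22 in WT lungs (log2 ± SE, adjusted p 7.23e-06 and 8.87e-07 in edgeR). Its level was 192 ± 32.9 CPM at day 56 and 34.4 ± 9.06 CPM at day 7 in IL6KO lungs, and 178 ± 11.4 CPM at day 56 and 19.8 ± 4.14 CPM at day 7 in WT lungs (SD, n = 3 each). Notch1, the receptor best known from endothelium and T cells, rose by 0.60 in IL6KO lungs and 0.46 in WT lungs (adjusted p 0.00404 and 0.0137).

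In all, 3 of 15 tested receptors, ligands and processing enzymes rose and none fell in IL6KO lungs, with Dll1 the third at 1.05 (adjusted p = 0.0351 in edgeR). In WT lungs 2 of 15 rose and 1, the gamma-secretase subunit Ncstn, fell by 0.25 on the log2 scale (adjusted p = 0.0367). Of 7 Notch targets, Hey1 and Nrarp rose in IL6KO lungs by 1.32 and 0.78 (adjusted p 0.0115 and 0.000502). In WT lungs Hey1, Nrarp and Hey2 rose by 2.50, 0.84 and 0.98 (adjusted p 0.000117, 0.000194 and 0.00513), and 1 target fell, the pericyte receptor Pdgfrb, by 0.59 on the log2 scale (adjusted p = 0.0382), named after its value was seen. The medians of the 15 were 0.05 in IL6KO lungs and 0.00 in WT lungs, beside 0.03 and 0.01 over all genes. Among all 13865 genes tested, 8.32% were called in IL6KO lungs and 14.8% in WT lungs, in either direction.

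Smooth muscle markers were also lower at day 56. Of 10 smooth muscle markers, 6 fell in IL6KO lungs and 7 in WT lungs, with medians of -0.76 and -0.63 on the log2 scale. Their summed level was 1163 to 1509 CPM at day 56 and 2183 to 2283 CPM at day 7 in IL6KO lungs, and 1398 to 1970 CPM at day 56 and 2420 to 2687 CPM at day 7 in WT lungs. None of the 10 was at 0 in any lung. Of 8 pericyte markers, 1 rose and 1 fell in IL6KO lungs, and 1 rose and 2 fell in WT lungs. Their summed level was 779 to 1169 CPM at day 56 and 1008 to 1094 CPM at day 7 in IL6KO lungs, which overlap, and 701 to 848 CPM at day 56 and 959.6 to 1030.4 CPM at day 7 in WT lungs, which do not.

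Other cell types moved between the days as well. Of 6 fibroblast markers, 4 fell in each genotype, and their summed level was 3083 to 3516 CPM at day 56 and 7682 to 8908 CPM at day 7 in IL6KO lungs, and 3279.7 to 4023 CPM at day 56 and 9249.5 to 11515 CPM at day 7 in WT lungs. Erythroid markers fell for 3 of 5 in IL6KO and 4 of 5 in WT lungs, with sums of 678 to 2697 CPM at day 56 and 3113 to 8156 CPM at day 7 in IL6KO lungs, and 278 to 896 CPM at day 56 and 3574 to 4117 CPM at day 7 in WT lungs. Airway epithelium sums were higher, at 11571.5 to 13623 CPM at day 56 and 7893 to 9078 CPM at day 7 in IL6KO lungs, and 10028 to 13034 CPM at day 56 and 6135 to 6809.8 CPM at day 7 in WT lungs, with 1 of 7 markers called higher and 1 lower in IL6KO and 2 higher and 1 lower in WT lungs. The median airway marker did not rise with the sum. In IL6KO lungs it was 83.9, 80.4 and 120 CPM at day 56 and 146, 91.3 and 120 CPM at day 7. In WT lungs it was 20.0, 36.4 and 74.0 CPM at day 56 and 83.7, 71.8 and 65.2 CPM at day 7. CD8 and NK cell markers rose for 1 of 8 in IL6KO and 8 of 8 in WT lungs. The part of these cells in the Notch3 and Kcnk3 values was not tested.

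Other hypertension genes differed between the days as well. Eng, an endothelial co-receptor for BMP ligands, rose by 0.57 in IL6KO lungs and 0.60 in WT lungs (adjusted p 0.0215 and 0.0115 in edgeR), and Bmpr2 rose by 0.71 in IL6KO lungs (adjusted p = 0.0285). Fbln2, a matrix protein of vessel walls, fell by 1.44 in IL6KO lungs and by 1.20 in WT lungs on the log2 scale (adjusted p 0.00104 and 0.00247). Thbs1, a secreted protein that activates TGF-beta, fell by 0.48 in IL6KO lungs and by 1.18 in WT lungs (adjusted p 0.0455 and 7.74e-05).

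Eif2ak4 was not called between the days, at 0.15 in IL6KO lungs and -0.02 in WT lungs, with 95% intervals of -0.06 to 0.36 and -0.23 to 0.18. Of 18 other integrated stress response genes, 3 rose and none fell in each genotype. Impact, an inhibitor of Eif2ak4, rose by 0.45 in IL6KO lungs and 0.56 in WT lungs (adjusted p 0.00403 and 0.000604 in edgeR), and Ppp1r15a, which restores translation, by 0.57 and 0.53 (adjusted p 0.0205 and 0.0202). Among mesenchymal regulators, where Tbx4 had no call, 2 of 9 fell in WT lungs, Gli1 by 0.95 and Wnt2 by 0.88 on the log2 scale (adjusted p 0.0238 and 0.0483), and none of 9 in IL6KO lungs. None of 5 caveola genes and none of 4 aquaporins was called in either genotype, and at an unadjusted p under 0.05 there were 1 caveola gene in IL6KO and 2 in WT lungs and 0 aquaporins.

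The genotypes were not shown to differ in these changes. The test of the interaction, the IL6KO difference at day 56 minus that at day 7, called none of the 7 genes and none of 13865, where 1043 genes, 7.52%, had an unadjusted p under 0.05 and DESeq2 called 47. For the 7 genes it ran from -0.27 for Cav1 (95% interval -0.57 to 0.03) to 0.40 for Atp13a3 (-0.42 to 1.23). For Notch3 it was 0.29 (-0.21 to 0.80) and for Kcnk3 0.01 (-0.34 to 0.36). Without WT replicate 3 of day 56 the interaction was called for 597 genes, none of them among the 7.

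In CD4 isolates 5 of the genes were at a small share of their lung level, while Eif2ak4 and Atp13a3 were not. Levels here are on a scale shared by the 10 day 7 libraries. In IL6KO isolates Cav1 had 0.515% of its level in IL6KO lung, Tbx4 0.604%, Aqp1 1.44% and Notch3 1.54%. In WT isolates Cav1 had 1.18% of its level in WT lung, Tbx4 1.26%, Aqp1 2.40% and Notch3 1.11%. Eif2ak4 kept 61.4% in IL6KO and 71.7% in WT isolates, and Atp13a3 stood at 88.4% and 114%.

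The log2 differences of isolates from lung were -7.60 in IL6KO and -6.41 in WT rats for Cav1, -7.35 and -6.30 for Tbx4, -6.11 and -5.38 for Aqp1, and -6.02 and -6.51 for Notch3. Eif2ak4 differed by -0.70 ± 0.11 in IL6KO and -0.48 ± 0.11 in WT rats (SE, adjusted p 0.000100 and 0.00172 in edgeR). Atp13a3 passed in neither genotype, at -0.17 with a 95% interval of -0.62 to 0.27 in IL6KO rats and 0.18 with an interval of -0.25 to 0.61 in WT rats.

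Kcnk3 was at the floor of detection in the isolates. It had 0 and 1 counts in IL6KO isolates and 3 and 0 counts in WT isolates, against 1488 and 1682 counts summed over the 3 IL6KO and the 3 WT lungs. Scaled to library size, that is 0.178% of the lung level in IL6KO (95% exact interval 0.00451 to 0.994, for counting error only) and 0.491% in WT (0.101 to 1.44). A count of 3 corresponds to 0.264 to 0.302 CPM in these libraries.

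In each genotype 6 of the 7 genes were lower in the isolates, all but Atp13a3. This stands beside 79.5% of 14772 genes called in IL6KO and 81.4% in WT rats, and 43.2% and 43.6% called lower. The medians of the 7 genes were -6.11 in IL6KO and -6.30 in WT rats, beside -0.12 over all genes in each. Upper quartile scaling moved the all-gene median in WT rats from -0.12 to -0.24, and the same 6 genes remained lower.

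The isolates showed the markers of the labelled cells, and those of other immune cells too. CD4 T cell markers were higher than in lung for 8 of 8 tested in both genotypes. Macrophage markers were higher for 5 of 7 and lower for 1 in IL6KO isolates, and higher for 4 of 7 and lower for 1 in WT isolates. Neutrophil markers were higher for 4 of 6 in IL6KO and 5 of 6 in WT isolates. The macrophage list summed to 9368 to 13092 CPM in IL6KO isolates, against 15512 to 19918 CPM in IL6KO lung. In WT rats it summed to 8843 to 9615 CPM in isolates, against 15062.7 to 17280.5 CPM in lung. Its sum was thus below the lung level, although more of its markers were called higher than lower. The CD4 T cell list summed to 2665 to 2953 CPM in IL6KO isolates, against 57.4 to 74.2 CPM in IL6KO lung. In WT rats it summed to 3356 to 3378 CPM in isolates, against 44.6 to 63.8 CPM in lung. Which of these cells gave the Eif2ak4 and Atp13a3 values was not tested.

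Markers of the lung's own cells were mostly lower, by different amounts. In IL6KO isolates the median marker level was 0.948% of lung for smooth muscle, 0.532% for pericytes, 0.803% for endothelium and 0.386% for alveolar type 1 cells. In WT isolates it was 2.09% for smooth muscle, 1.16% for pericytes, 1.55% for endothelium and 0.675% for alveolar type 1 cells. Fibroblast markers stood at 1.62% in IL6KO and 2.26% in WT isolates, alveolar type 2 markers at 3.20% in IL6KO and 12.9% in WT isolates, and airway epithelium markers at 3.59% in IL6KO and 12.5% in WT isolates. Alveolar type 2 markers still summed to 1325 to 1360 CPM in IL6KO isolates and 2839 to 4148 CPM in WT isolates. The pericyte marker Higd1b was at 0 in all 4 isolates, and the endothelial marker Cldn5 was at 0 in both IL6KO isolates. In IL6KO isolates Aqp1, at 1.44%, and Notch3, at 1.54%, lay above the medians of smooth muscle, pericytes, endothelium and alveolar type 1 cells. Both lay below those of fibroblasts, alveolar type 2 cells and airway epithelium. Aqp1 in WT isolates, at 2.40%, lay above the same medians and that of fibroblasts. Notch3 in WT isolates, at 1.11%, lay below the medians of smooth muscle, pericytes, endothelium and fibroblasts. The median of erythroid markers was 65.7% of lung in IL6KO and 20.0% in WT isolates. How much of the remaining Cav1, Tbx4, Aqp1 and Notch3 came from cells of the lung was not tested.

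**Figure D4:**
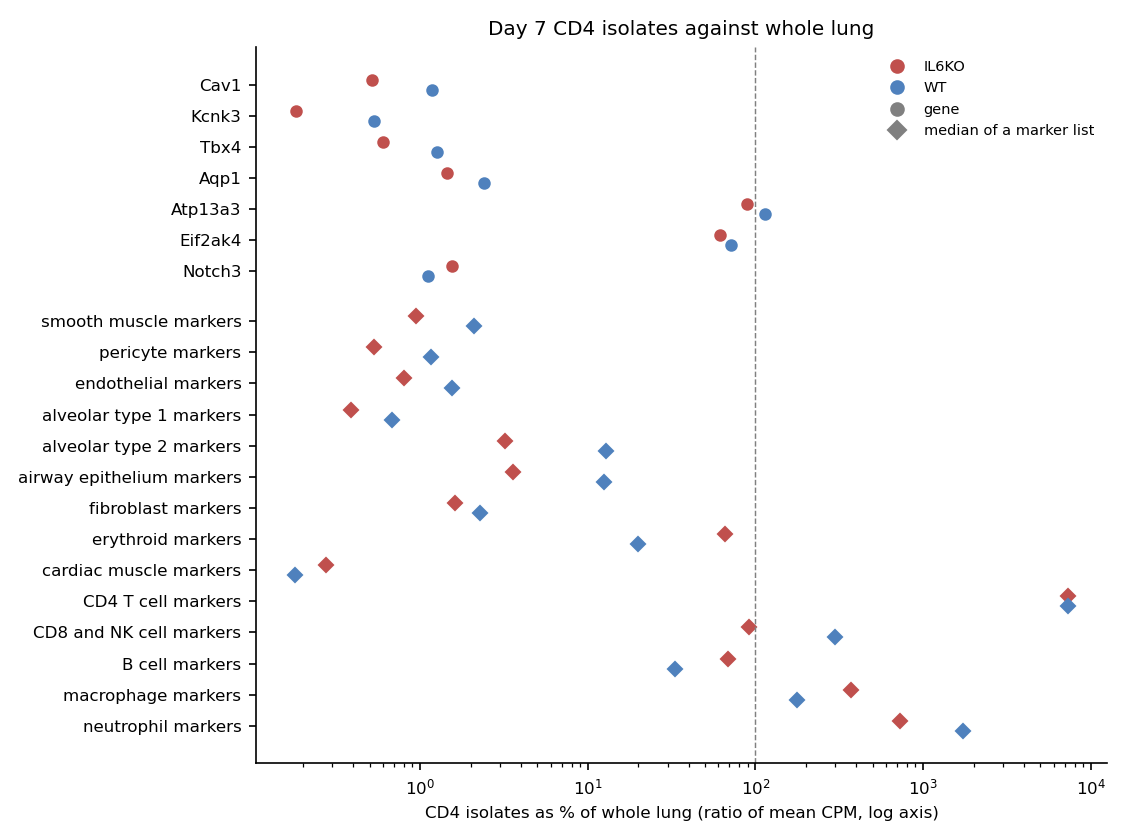
Level of each gene in day 7 CD4 isolates as a percentage of its mean level in day 7 whole lung of the same genotype, on a log axis, beside the medians of cell type marker lists. Atp13a3 and Eif2ak4 lie between 61.4% and 114%, and the other 5 genes lie at 2.40% or lower. The medians of alveolar type 2 and airway epithelium markers lie at 3.20% to 12.9%. Those of macrophage and neutrophil markers lie above the lung level.

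Partners of Eif2ak4 were mostly higher in the isolates, and those of Atp13a3 went both ways. Among all genes tested 36.4% were called higher in IL6KO and 37.7% in WT rats. Of 19 integrated stress response genes, 15 were higher and 1 lower than in lung in each genotype, with medians of 0.98 in IL6KO and 1.38 in WT rats. Phgdh, which starts serine synthesis, was higher by 3.85 in IL6KO and 4.29 in WT rats, and Ppp1r15a by 3.67 in both (adjusted p at most 2.64e-11 in edgeR). Of 14 P5 ATPase and polyamine genes, 7 were higher and 4 lower in IL6KO rats and 8 higher and 3 lower in WT rats. Odc1, the first enzyme of polyamine synthesis, was higher by 3.29 and 3.18, whereas Atp13a4, a close relative of Atp13a3, was lower by 7.28 and 4.50 on the log2 scale in IL6KO and WT rats.

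Partners of Cav1, Tbx4 and Aqp1 were lower with few exceptions, and those of Kcnk3 and Notch3 were mixed. Called lower were 8 of 9 caveola genes in IL6KO and 9 of 9 in WT rats, 9 of 9 mesenchymal regulators in both, and 3 of 4 aquaporins in both. Of 8 potassium channels of the Kcnk family with Kcna5, 3 were lower and 1 higher in IL6KO rats and 5 lower and 1 higher in WT rats. Of 16 other Notch receptors, ligands and processing enzymes, 5 were higher in each genotype, and 7 were lower in IL6KO and 6 in WT rats. Notch4, an endothelial receptor, differed by -5.19 in IL6KO and -4.35 in WT rats.

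Within the isolates, IL6KO libraries had lower Aqp1 and Cav1 than WT libraries. Aqp1 had 12.5 and 10.1 CPM in IL6KO isolates, against 26.3 and 19.4 CPM in WT isolates, from 109 to 261 counts. The log2 difference was -0.92 ± 0.19 (SE, 95% interval -1.37 to -0.48, adjusted p = 0.0347 in edgeR). Cav1 had 7.20 and 7.69 CPM in IL6KO isolates, against 15.6 and 12.2 CPM in WT isolates. Its log2 difference was -0.81 ± 0.20 (SE, 95% interval -1.26 to -0.35), just short of the threshold with an adjusted p of 0.0541 in edgeR.

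Tbx4 had 11 and 7 counts in IL6KO isolates, against 15 and 20 counts in WT isolates, a log2 difference of -0.90 ± 0.44 (SE, adjusted p = 0.268 in edgeR). Eif2ak4 had 31.9 and 35.2 CPM in IL6KO isolates, against 42.8 and 38.4 CPM in WT isolates, and a difference of -0.19 ± 0.11 (adjusted p = 0.362). Atp13a3 had 3.69 and 4.45 CPM in IL6KO isolates, against 5.03 and 5.11 CPM in WT isolates, and a difference of -0.23 ± 0.26 (adjusted p = 0.644). Notch3 overlapped, with 2.52 and 3.99 CPM in IL6KO isolates and 3.02 and 1.76 CPM in WT isolates.

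So 1 of the 6 genes tested, Aqp1, was called, beside 6.4% of 12243 genes, 2.91% called lower. Kcnk3 did not pass the filter on low counts. The genotypes did not overlap for 5 of the 6, all lower in IL6KO, where with 2 libraries a group 28.8% of all genes were lower without overlap. The Aqp1 call was lost without IL6KO replicate 2 (-0.78, adjusted p = 0.0599 in edgeR), WT replicate 1 (-0.70, 0.223) or WT replicate 2 (-1.12, 0.0737) and with limma-voom (0.0652), within a range of adjusted p from 0.00224 to 0.223 over 12 alternatives. Cav1 was called in 4 of 12, with adjusted p from 0.00591 to 0.314.

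Markers of many other cells also differed between these libraries, most of them lower in IL6KO. As a percentage of the WT mean, IL6KO isolates had 53.7% for Cav1, 50.1% for Tbx4 and 49.5% for Aqp1. Summed markers stood at 43.9% for smooth muscle, 36.4% for pericytes, 72.8% for endothelium, 58.3% for alveolar type 1 cells, 38.4% for alveolar type 2 cells, 36.6% for airway epithelium, 65.2% for fibroblasts, 43.3% for CD8 and NK cells, 46.8% for neutrophils and 90.3% for cardiac muscle. The smooth muscle sums were 22.9 and 28.1 CPM in IL6KO isolates and 56.9 and 59.3 CPM in WT isolates, and the endothelial sums were 115 and 125 CPM in IL6KO isolates and 156 and 174 CPM in WT isolates. The pericyte sums were low, at 2.88 to 3.15 CPM in IL6KO and 8.10 to 8.46 CPM in WT isolates. A sum follows its most abundant genes. The median endothelial marker was 2.25 and 2.50 CPM in IL6KO isolates and 5.54 and 3.52 CPM in WT isolates. The median fibroblast marker was 2.07 and 1.95 CPM in IL6KO isolates and 4.03 and 5.46 CPM in WT isolates.

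Called lower were 3 of 7 smooth muscle, 1 of 4 pericyte, 1 of 8 endothelial, 2 of 8 alveolar type 1 and 5 of 8 alveolar type 2 markers. Other sums had a higher mean in IL6KO isolates. Erythroid markers, of the other cells known for Aqp1, stood at 374% of the WT mean with 1 of 6 called higher. B cell markers stood at 165% with 1 of 6 called higher. Macrophage markers stood at 122% with 3 of 7 called higher. The macrophage sums overlapped, at 9368 and 13092 CPM in IL6KO isolates and 9615 and 8843 CPM in WT isolates. The summed CD4 T cell markers were at 83.4%, with 3 of 8 called lower. The part of these cells in the Aqp1 and Cav1 values was not tested.

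**Figure D5:**
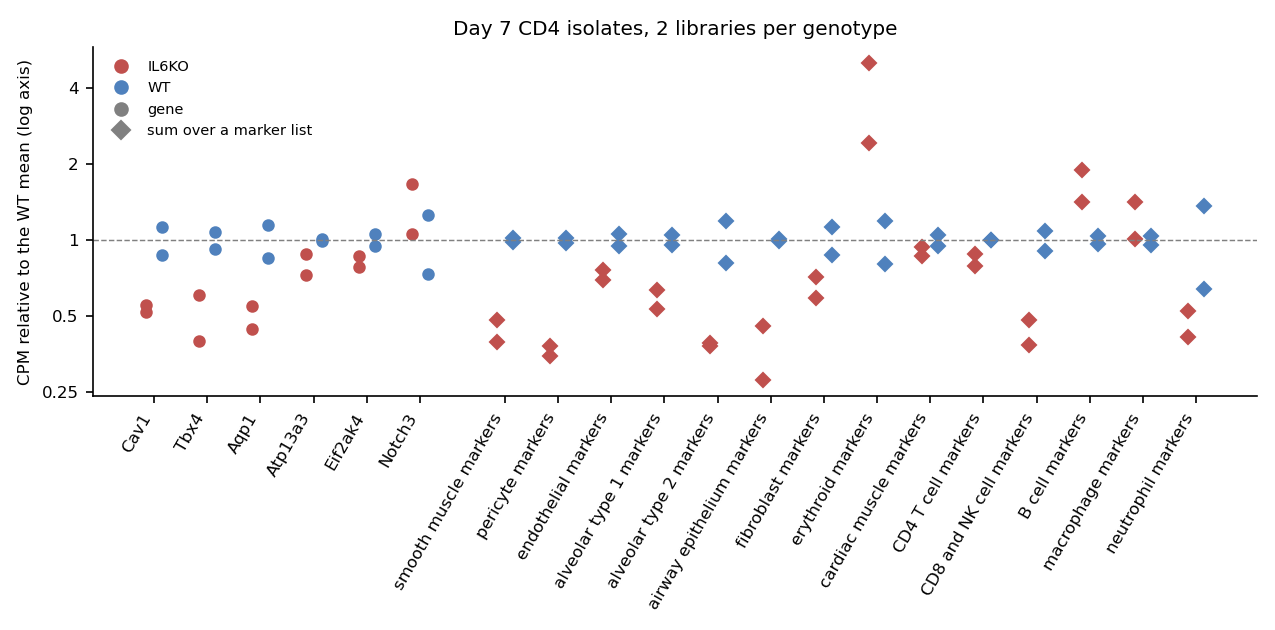
Level of each gene except Kcnk3 and summed level of each cell type marker list in the 4 CD4 isolates, as a multiple of the WT mean, with a point per library. Cav1, Tbx4 and Aqp1 lie below both WT libraries in both IL6KO libraries, as do the marker sums of smooth muscle, pericytes, endothelium and alveolar epithelium, while the sums of erythroid and B cell markers lie above both WT libraries.

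Some partners were called between the genotypes in the isolates, where 6.4% of all 12243 genes tested were called. Of 19 integrated stress response genes, Ddit4, Atf3 and Ddit3 were higher in IL6KO isolates by 0.59, 0.69 and 0.42 (adjusted p 0.0126, 0.0172 and 0.0352 in edgeR) and none was lower. Of 13 P5 ATPase and polyamine genes, Atp13a2, the lysosomal polyamine exporter, was higher by 0.70 (adjusted p = 0.00730). The other estimates of that list went both ways, none called, with Atp13a4 at -2.73 (adjusted p = 0.0591 in edgeR). Of 7 caveola genes Pacsin2 was higher by 0.46 (adjusted p = 0.0224), and Cavin1 lay above 0 without a call. Cavin2, Cavin3, Ehd2, Pacsin3 and Cav2 lay below 0, none called, with Cavin2 at -1.12 (adjusted p = 0.0541 in edgeR). Of 4 Notch targets Hes1 was higher by 0.72 (adjusted p = 0.0155). None of 8 BMP and VEGF pathway genes and none of 15 other Notch receptors, ligands and processing enzymes was called, with 1 and 0 at an unadjusted p under 0.05.

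The difference between IL6KO and WT was itself compared between isolates and lung at day 7, a comparison added after the values had been seen. It was lower in isolates than in lung for Cav1, by -1.19 ± 0.19 (log2 ± SE, 95% interval -1.60 to -0.78, adjusted p = 0.00414 in edgeR), and for Aqp1, by -0.73 ± 0.18 (95% interval -1.12 to -0.33, adjusted p = 0.0358). For Tbx4 it was -1.06 ± 0.29 with an adjusted p of 0.0885, and for Notch3 0.49 ± 0.34 with an adjusted p of 0.454. These were 2 of 7 genes, beside 6.42% of 14772 genes called and 4.55% called lower, and the median over all genes was -0.11.

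Cav1 kept its call in all 17 alternatives, with adjusted p from 3.93e-06 to 0.0320, and Aqp1 in 8 of 17, with adjusted p from 0.00221 to 0.168. The Aqp1 call was lost without IL6KO isolate 2 or WT isolate 1 (-0.58 and -0.50, adjusted p 0.148 and 0.168 in edgeR), and without IL6KO lung 1 or 2 or WT lung 1, 2 or 3 (-0.72, -0.67, -0.63, -0.67 and -0.72, adjusted p from 0.0610 to 0.0908). It was also lost with limma-voom (adjusted p = 0.0766) and with a mean of at least 5 CPM (0.0542 in edgeR). Among partners, the caveola genes Cavin2 and Ehd2 were lower in the same comparison by 1.41 and 0.90 on the log2 scale (adjusted p 0.00413 and 0.0410 in edgeR), and so were Foxf1 by 1.82, Aqp4 by 2.41 and Atp13a4 by 2.79. Markers called lower were 4 of 10 for smooth muscle, 2 of 11 for endothelium, 3 of 8 for alveolar type 1 and 6 of 8 for alveolar type 2 cells. Their part in the Cav1 and Aqp1 values was not tested.

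Across the 12 lung libraries, the genes whose levels moved most like each of the 7 were found from the Pearson correlation of deviations from the mean of the day, over 10583 genes with at least 5 CPM on average at each day. For Cav1 these were Cd9, Pdk4 and Lats2 (r = 0.87, 0.85 and 0.81), and for Aqp1 C4b, Stab1 and Jaml (0.94, 0.92 and 0.92). For Notch3 they were Sgip1, Arhgap42 and Acss1 (0.87, 0.86 and 0.85), for Tbx4 Kdm8, Nid1 and Reck (0.92, 0.91 and 0.89) and for Kcnk3 Laptm4b, Cdk16 and Sec11c (0.93, 0.92 and 0.91). For Atp13a3 they were Tab3, Arid4b and Snx13 (0.98, 0.97 and 0.97) and for Eif2ak4 Ccna1, Nfyc and Maml1 (0.82, 0.82 and 0.81). These points share libraries and depth and include the genotype difference, so the values are a description.

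None of the 7 genes was among the nearest of another. Over their 21 pairs r had a median of -0.09 and ran from -0.76 for Kcnk3 with Atp13a3 to 0.56 for Tbx4 with Notch3.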

How the data were processed

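Per the labels' protocols, Trizol and a spin column with DNase treatment gave the RNA. The authors deposited raw total counts per gene symbol, per the file headers, in 3 rat tables of 22081 symbols. The submitters' processing notes name the mouse build GRCm38, also for rat; the tools for alignment and counting and the annotation were not given in the sources used here. Genes passing filterByExpr were tested in R 4.3.3 with edgeR 4.0.16 (TMM scaling, robust quasi-likelihood F test) and called at an adjusted p under 0.05; limma 3.58.1 and DESeq2 1.42.0 served as alternatives. Genotypes were compared within a table; days used the 20230 symbols shared by both lung tables, of which 59 tested genes, none among the 7, were over 10 CPM on 1 day and under 1 CPM on the other, so no fold is given for them. SE is the log2 change over the root of F. Methods were tested on simulated counts. The genes and partner and marker lists were chosen with earlier results of these data known. Named partners are the 3 called genes of smallest p per list, or the single gene of smallest p. Replicates differed beyond sampling noise (chi-square per degree of freedom 7.91 to 36.6). Intervals on counts are exact and cover counting error only. Sequences came from RefSeq; figures used Python 3.11.15 with matplotlib 3.10.9.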

Additional observations from a re-analysis of the deposited data

Results flagged for a closer look

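The difference of IL6KO from WT was not the same in day 7 CD4 isolates and day 7 whole lung for Cav1 and Aqp1, by a test of that difference over the 10 libraries. For Cav1 the difference in isolates minus that in lung was -1.19 (log2, adjusted p = 0.00414 in edgeR): IL6KO isolates lay below both WT isolates, and IL6KO lungs lay above all 3 WT lungs. For Aqp1 it was -0.73 (adjusted p = 0.0358): IL6KO libraries lay below WT libraries in both, with the larger difference in the isolates, and the call held in 8 of 17 alternatives. The comparison was added after the values had been seen. For Cav1 neither genotype difference was called by itself (adjusted p 0.0541 in isolates and 0.164 in lung, edgeR). Its isolate level was 0.515% of lung in IL6KO and 1.18% in WT rats, from 80 to 155 counts. Of all genes, 28.8% were lower without overlap in isolates, and 9.09% higher and 9.66% lower in day 7 lung. Summed smooth muscle, endothelial and alveolar markers were also lower in IL6KO isolates, and their part was not tested.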

How the results depend on the processing

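Over 62 estimates for the 7 genes, 863 alternative values were computed: 807 kept direction and side of the threshold, 19 lost a call, 10 gained one and 27, of 14 estimates, changed sign, none of them called there or in the report (smallest adjusted p 0.175 in the tool of each alternative). DESeq2 called 175 genes between genotypes at day 56 (2 in the report), 565 at day 7 (300) and 47 for the interaction (0), and among the 7 genes it called 2 between genotypes at day 7 and 1 between days in IL6KO lungs (0 each). Limma-voom called 4 genes at day 56, 551 for the genotype difference between isolates and lung (949), 0 of the 7 genes in isolates and 1 for that difference. Fitting all 12 lung libraries together called 20 genes at day 56 and 59 at day 7; fitting all 10 day 7 libraries called 1495 genes in isolates (784), with 2 of the 7. Without the filter on low counts, 7 genes were called at day 56, and 2 of the 7 followed genes were called in isolates. Upper quartile scaling also called 2 of the 7 in isolates, but 2 genes at day 56, as in the report. With a mean of at least 5 CPM, 1 of the 7 was called for the difference between isolates and lung. The estimates that changed sign gave, over the left-out libraries, -0.25 to 0.097 (IL6KO) and -0.17 to 0.064 (WT) for Aqp1 between days and -0.22 to 0.12 for its interaction; -0.063 to 0.15 for Atp13a3 at day 7 and -0.34 to 0.35 between days in WT; -0.055 to 0.079 for Cav1 at day 56 and -0.13 to 0.010 between days in IL6KO; -0.14 to 0.045 for Eif2ak4 at day 7 and -0.11 to 0.067 between days in WT; -0.084 to 0.070 for Notch3 at day 7; -0.37 to 0.043 for Tbx4 at day 56 and -0.10 to 0.033 between days in WT; and -0.11 to 0.078 for the interaction of Kcnk3. Limma-voom gave -0.041 for Atp13a3 between days in WT, and no filter gave -0.0021 for the interaction of Kcnk3. The fitted Kcnk3 difference between isolates and lung, from 0 to 3 isolate counts, ran from -4.16 to 3.01 and carries no direction. The cause was not tested for any of these.

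Same-numbered deviations from the group means correlated at 0.0779, 0.133 and 0.316 at day 7 and at -0.208, -0.0978 and -0.00834 at day 56. In isolates the value was 0.0199, a single one because 2 libraries per group mirror each other. These values cannot decide whether replicate numbers pair the libraries. With the replicate block, 0 genes were called at day 56, 543 at day 7 (300 in the report) and 1084 in isolates (784). Of the 7 genes, it called 1 between days in WT lungs, Notch3, where Kcnk3 had an adjusted p of 0.0579 in edgeR. In isolates it called 2 of them, where Cav1 was added with an adjusted p of 0.0467 in edgeR.

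Leaving out each library in turn gave 1 to 1268 genes between genotypes at day 56 (4 without WT replicate 1), 94 to 372 at day 7 and 76 to 970 in isolates, where the lone library was taken to vary like the others. The low counts at day 7 were 97 and 94 without IL6KO replicates 1 and 2 and 195, 115 and 154 without WT replicates 1, 2 and 3, and in isolates 76 and 115 without WT replicates 1 and 2. Between days there were 704 to 1008 genes in IL6KO lungs (706 and 704 without replicates 1 and 2 of day 7) and 1235 to 3656 in WT lungs (3656 without replicate 3 of day 56), 0 to 597 for the interaction, 11084 to 11604 in IL6KO and 11304 to 11744 in WT rats between isolates and lung, and 341 to 1111 for the genotype difference between them (341 without WT isolate 1). Of the 7 genes, 0 to 1 were called at day 56, 0 to 0 at day 7, 0 to 1 in isolates, 0 to 2 between days in IL6KO and 1 to 2 in WT lungs, 0 to 0 for the interaction, 6 to 6 between isolates and lung in each genotype and 1 to 2 for the genotype difference between them. Counts of 7 to 20 for Tbx4 and 0 to 3 for Kcnk3 limit what the isolates can show for these genes.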
